A study of Homo sapiens and Mus musculus with 17 samples.

Results

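The genes described here are 10 chaperones and proteases that work outside the endoplasmic reticulum (ER): the cytosolic HSPA8, HSPH1, HSP90AA1, DNAJB1, BAG3 and HSPB1, and the mitochondrial HSPD1, HSPE1, HSPA9 and LONP1. They were taken by symbol, ignoring case, from 2 tables of FPKM values (a level of RNA that takes account of transcript length and sequencing depth), so no measured value decided which genes entered. All 10 were found among the 62714 genes of the human table and the 55491 genes of the mouse table, and all 10 passed the filter on low values in both. Mouse genes are written with lower-case letters. The question is whether the response to a loss of SEL1L-HRD1 ER-associated degradation (ERAD) stays within the ER or is also seen among the chaperones of the cytosol and the mitochondria.

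The human libraries came from HEK293T, a line derived from embryonic kidney, in which SEL1L or HRD1 had been targeted with CRISPR/Cas9; there were 3 WT, 3 HRD1 KO and 3 SEL1L KO libraries, and the sources used here do not say whether each knockout line was 1 clone. The mouse libraries came from whole brown adipose tissue (BAT) of 12-week-old mice on the B6 background: 3 WT, 2 Hrd1 flox/flox; Ucp1-Cre (Hrd1 KO) and 3 Sel1l flox/flox; Ucp1-Cre (Sel1L KO). Ucp1-Cre acts in brown adipocytes, so the other cells of the tissue keep the gene. Each comparison set a knockout against the WT libraries of its own table; the 2 knockouts of a table share those WT libraries.

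SEL1L and HRD1 form a complex in the ER membrane that passes misfolded ER proteins to the proteasome. Cells sense misfolding separately in each compartment. Misfolded ER proteins induce ER chaperones through the unfolded protein response, misfolded cytosolic proteins release the transcription factor HSF1, which binds heat shock elements and induces cytosolic chaperones, and stress inside mitochondria induces mitochondrial chaperones and proteases through ATF4, CHOP and ATF5. Brown adipocytes are rich in mitochondria and produce heat through UCP1.

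Heat shock elements are alternating copies of GAA and its complement TTC, each set apart by a pair of bases. Of the human members, 5 of 10 had the inverted repeat GAANNTTC and 4 of 10 had TTCNNGAA in a RefSeq window of 250 bases before to 50 after a start site (GRCh38.p14, both strands, 15 windows for the 10 genes). Counted by window, 6 of the 15 held GAANNTTC and 4 of 15 held TTCNNGAA. Of all 35116 windows, 6.77% held GAANNTTC and 7.74% held TTCNNGAA. A run of 3 alternating units, in which both repeats overlap, was found in 3 of 10 members (HSPA8, HSP90AA1 and HSPD1). By window this was 3 of 15, beside 0.49% of all windows. The runs of HSPA8 and HSPD1 are printed with their flanks, 5′ to 3′ on the gene's strand, with the GAA and TTC units in capitals. They lie at chr11:123062343-123062372 and chr11:123062168-123062197 for HSPA8 and at chr2:197500061-197500090 for HSPD1, all on the minus strand.

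HSPA8, distal run: gagcttGAAagTTCcaGAAcgctgcggtga
HSPA8, proximal run: ggccccTTCtgGAAggTTCtaagatagggt
HSPD1: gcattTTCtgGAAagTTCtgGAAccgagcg

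The HSPD1 window thus held 4 units in a row, although HSPD1 encodes a mitochondrial chaperone. For HSP90AA1 (chr14:102087055-102087164, minus strand) and DNAJB1 (chr19:14518408-14518517, minus strand) 110 bases are shown, because their repeats lie close together and upstream of a TATA-like stretch. HSP90AA1 had a run of 3 units followed by a further TTCNNGAA, and DNAJB1 had GAANNTTC in 2 places of this stretch without a run.

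HSP90AA1: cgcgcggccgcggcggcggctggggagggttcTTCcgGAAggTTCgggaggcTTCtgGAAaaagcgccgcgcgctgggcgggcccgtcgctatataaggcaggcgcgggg
DNAJB1: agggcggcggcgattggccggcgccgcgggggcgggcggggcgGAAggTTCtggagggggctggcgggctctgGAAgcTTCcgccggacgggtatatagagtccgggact

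HSPB1 had 1 GAANNTTC and HSPA9 had 1 TTCNNGAA, while the windows of HSPH1, BAG3, HSPE1 and LONP1 held neither string. For HSPE1 this depends on where its window lies. The run printed for HSPD1 ends at 197500090, and the HSPE1 gene starts at 197500140 on the plus strand. Both repeats read the same on either strand, so the run also lies upstream of HSPE1, outside the window used. No member's window held TGATGCAAT, a composite element bound by ATF4 (0.236% of all windows), or the ER stress element, CCAAT followed after 9 bases by CCACG (0.0769% of all windows). These are matches of letters and say nothing of binding.

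Some properties of the libraries bear on every value. SEL1L was lower in each SEL1L KO HEK293T library (1.82 to 3.36 FPKM) than in each WT library (4.39 to 12.85), but SYVN1, which encodes HRD1, was 18.48 to 22.47 FPKM in the libraries labelled HRD1 KO against 16.70 to 16.95 in WT, Syvn1 was 13.77 and 14.05 in those labelled Hrd1 KO against 5.20 to 5.65, and Sel1l was 8.17 to 25.20 in those labelled Sel1L KO against 9.10 to 12.88, so these groups are given by their labels. Relative depth differed 1.88-fold between HEK293T libraries and 1.74-fold between BAT libraries. In the library labelled Sel1L KO replicate 1 of BAT the 8 immediate early genes (such as Fos and Egr1, which respond to stimuli within minutes) summed to 551 FPKM, and the lowest sum in its group was 41.4. In the library labelled Hrd1 KO replicate 1 the 8 skeletal muscle markers summed to 317 FPKM, against 1.17 to 3.11 in WT, and in Sel1L KO replicate 1 to 55.6. Endothelial markers summed to 94.1 and 123 FPKM in Hrd1 KO against 55.9 to 78.2 in WT, without overlap, and to 61.4 to 105 in Sel1L KO. These sums are of values as deposited, where 51.1% of all genes tested also lay above WT without overlap in Hrd1 KO. The median log2 fold change of the endothelial markers in Hrd1 KO was 0.60 as deposited, beside 0.42 over all genes tested. It was 0.18 after the median-ratio scaling described below. Brown adipocyte markers summed to 22252 to 24516 FPKM in the WT libraries, against 16925 to 21865 for Hrd1 KO and 18000 to 22281 for Sel1L KO, and macrophage markers to 22.4 to 29.9, 45.6 to 46.4 and 45.6 to 71.8; the part of cell composition in any result was not tested, and in bulk tissue fewer cells of a type cannot be told apart from less RNA per cell.

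In WT HEK293T cells the members covered a wide range of levels. HSPE1, the co-chaperonin Hsp10, stood at 759 ± 213 FPKM (SD, n = 3), followed by HSP90AA1 (700 ± 181), HSPA8 (590 ± 97.8), HSPD1 (570 ± 94.7) and HSPA9 (316 ± 70.6). LONP1 (135 ± 18.9), HSPB1 (75.8 ± 29.4), HSPH1 (54.3 ± 16.5), DNAJB1 (31.3 ± 5.77) and BAG3 (13.8 ± 0.459) were lower. The ranges of the top 4 overlapped between neighbours in this order, as did those of HSPB1 with HSPH1 and HSPH1 with DNAJB1, whereas HSPA9, LONP1, HSPB1 and BAG3 each lay fully below the next higher gene. In WT BAT the order was Hspa8 (706 ± 36.1), Hspa9 (606 ± 55.3), Hspe1 (528 ± 79.8), Hspd1 (503 ± 70.2), Hspb1 (124 ± 21.2), Lonp1 (104 ± 18.3), Hsp90aa1 (96.3 ± 5.40), Hsph1 (25.96 ± 1.91), Bag3 (14.7 ± 1.22) and Dnajb1 (13.02 ± 1.22). The ranges of Hspe1 with Hspa9, Hspd1 with Hspe1, Lonp1 with Hspb1, Hsp90aa1 with Lonp1 and Dnajb1 with Bag3 overlapped. FPKM is scaled per length, which allows levels of different genes to be set side by side within a table, but the 2 tables were normalized separately and were not compared.

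In the HEK293T libraries labelled as lacking either partner, the chaperones of the cytosol and the mitochondria overlapped the WT values, while most ER chaperones did not. No member passed the test (limma on log2(FPKM + 0.1), Benjamini-Hochberg adjusted p under 0.05) in either knockout, against 0.057% of all genes tested in HRD1 KO (9 genes) and 0.0317% in SEL1L KO (5 genes). With the replicate number as a block, which pairs the HEK293T libraries, 25 and 12 genes passed and still no member. At an unadjusted p under 0.05, which 2% of genes reached in HRD1 KO and 1.49% in SEL1L KO, the count was 0 of 10 in both. For no member did the knockout libraries lie fully above the WT libraries (1.96% of genes in HRD1 KO, 2.41% in SEL1L KO) or fully below them (3.04% and 3.72%). At shares this low, a count of 0 of 10 does not set the members apart from other genes.

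Among the cytosolic members, HSPA8 (ENSG00000109971, chromosome 11, 123057489 to 123063230 of GRCh38) is the constitutive Hsp70. It had 550, 519 and 702 FPKM in the WT libraries, 562, 545 and 881 in those labelled HRD1 KO and 587, 482 and 960 in SEL1L KO. The highest library of each group was replicate 3, and the groups overlapped. HSPA8 had a log2 fold change of 0.14 in HRD1 KO and 0.15 in SEL1L KO, each with a standard error of 0.28. Within replicate numbers, HSPA8 was higher in HRD1 KO than in WT in every pair, whereas the SEL1L KO pairs went both ways. The standard errors and intervals given for HEK293T members come from the model without the replicate block. With the block the standard errors fell to 0.12 for HSPA8, 0.21 for HSPH1, 0.32 for HSPB1 and 0.14 for HSPA9. The log2 fold changes of these genes stayed the same.

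HSPH1 (ENSG00000120694, chromosome 13, 31134973 to 31162388) is an Hsp110 that acts as nucleotide exchange factor for Hsp70. Its values were 35.4, 65.7 and 61.9 FPKM in WT, 46.0, 58.7 and 85.8 in HRD1 KO and 47.1, 46.7 and 104 in SEL1L KO, again with the top value in replicate 3 of each knockout. HSP90AA1 (ENSG00000080824, chromosome 14, 102080742 to 102139699), the stress-inducible Hsp90, had log2 fold changes of 0.01 and 0.04 (standard error 0.21). DNAJB1 (ENSG00000132002, chromosome 19, 14514769 to 14560391) is a J-domain protein that hands clients to Hsp70 and a known target of HSF1. It read 26.1, 30.3 and 37.5 FPKM in WT, 29.5, 32.3 and 25.9 in HRD1 KO and 33.7, 32.5 and 26.4 in SEL1L KO. Its log2 fold changes were -0.09 (95% interval -0.53 to 0.36) and -0.01 (-0.46 to 0.44), which bound the changes these data allow.

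BAG3 (ENSG00000151929, chromosome 10, 119651380 to 119677819), a co-chaperone that routes Hsp70 clients to autophagy, was the member with the least spread in WT. It had 13.9, 14.2 and 13.3 FPKM in WT, 13.5, 17.9 and 15.6 in HRD1 KO and 15.8, 14.0 and 14.2 in SEL1L KO. HSPB1 (ENSG00000106211, chromosome 7, 76302673 to 76304295) encodes the small heat shock protein Hsp27, which holds unfolded proteins without using ATP. On the log2 scale it had the widest differences between groups. It read 62.0, 55.9 and 110 FPKM in WT, 144, 124 and 97.5 in HRD1 KO and 33.3, 34.6 and 89.7 in SEL1L KO. The HRD1 KO libraries thus lay high and 2 of 3 SEL1L KO libraries low, while replicate 3 of each knockout fell within the WT range. Compared within replicate numbers, which pair these libraries, HSPB1 was lower in SEL1L KO than in WT in 3 of 3 pairs, higher in HRD1 KO than in SEL1L KO in 3 of 3 and higher in HRD1 KO than in WT in 2 of 3. HSPB1 had a log2 fold change of 0.73 ± 0.39 (standard error) in HRD1 KO and -0.62 ± 0.39 in SEL1L KO. Between the 2 knockouts it differed by 1.36 ± 0.39 on the log2 scale, with an unadjusted p of 0.00611 that did not survive limma's Benjamini-Hochberg adjustment (adjusted p = 1.00, where 0% of genes tested passed).

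The mitochondrial members also overlapped WT. HSPD1 (ENSG00000144381, chromosome 2, 197486584 to 197516737) and HSPE1 (ENSG00000115541, chromosome 2, 197500140 to 197503449) encode the Hsp60 chaperonin and its Hsp10 lid, and HSPE1 lies within the HSPD1 interval on the opposite strand. HSPD1 had 461, 616 and 633 FPKM in WT, 433, 485 and 666 in HRD1 KO and 519, 531 and 601 in SEL1L KO. HSPE1 had 532, 790 and 955 in WT, 640, 709 and 909 in HRD1 KO and 893, 750 and 831 in SEL1L KO. All knockout values of HSPE1 lay within the WT range, as did those of HSPD1 except in replicates 1 (433) and 3 (666) of HRD1 KO, one below it and the other above. HSPA9 (ENSG00000113013, chromosome 5, 138553756 to 138575675) is mortalin, the mitochondrial Hsp70 that pulls proteins through the import channel. The WT libraries ranged from 236 to 371 FPKM, those labelled HRD1 KO from 209 to 438 and those labelled SEL1L KO from 303 to 390. LONP1 (ENSG00000196365, chromosome 19, 5691834 to 5720572), the main protease of the matrix, ranged from 113 to 148, from 107 to 164 and from 120 to 159. The median log2 fold change of the 4 genes was -0.0027 in HRD1 KO and 0.08 in SEL1L KO, and that of the 6 cytosolic genes 0.16 and 0.06, beside medians over all genes tested of -0.05 and -0.06.

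**Figure D1:**
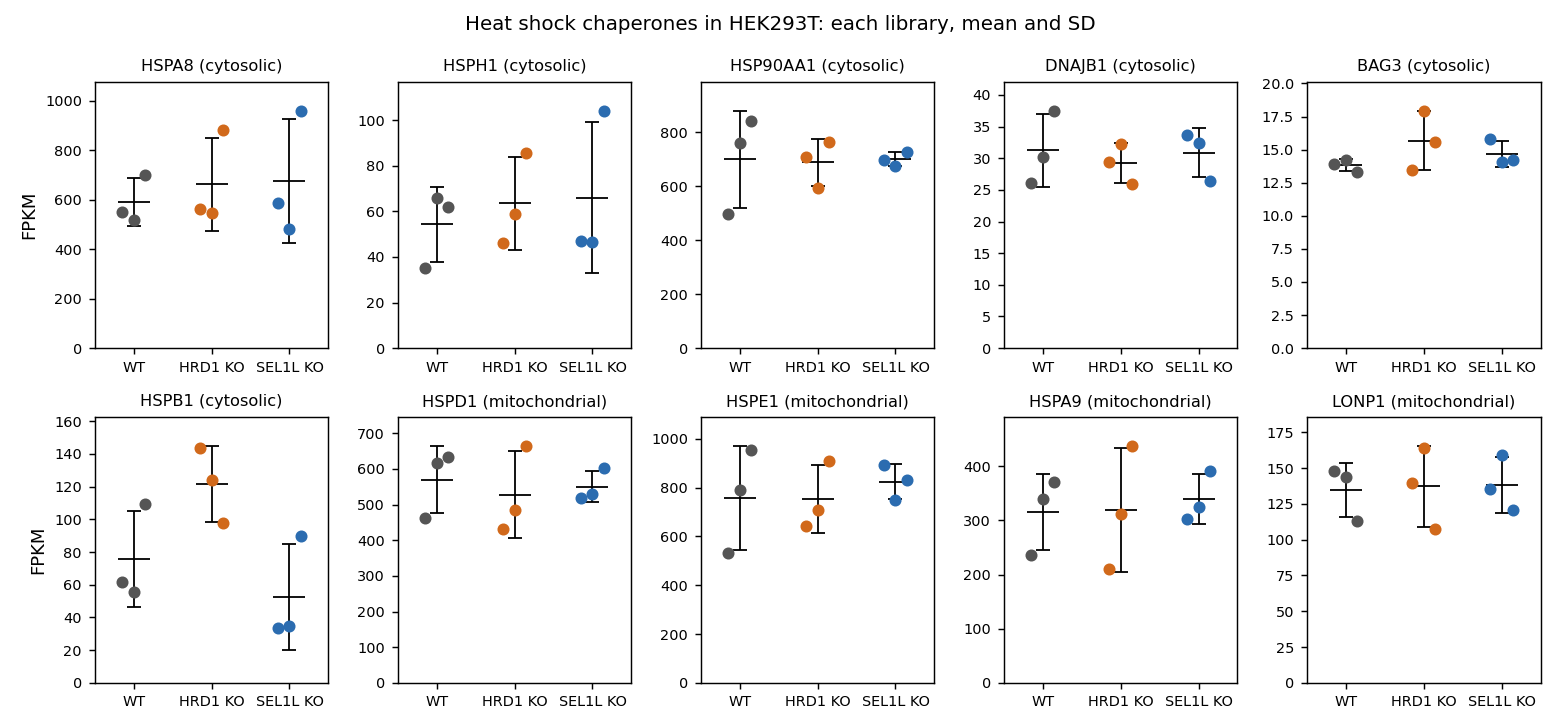
FPKM of the 10 members in each HEK293T library (points; n = 3 in each group), with the mean (horizontal line) and SD (vertical bar) of each group and every axis starting at 0. The knockout groups overlap WT in all 10 panels. HSPB1, for which the HRD1 KO values (97.5 to 144) lie above the SEL1L KO values (33.3 to 89.7), has the widest differences between groups on the log2 scale.

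The other genes of these pathways gave the same counts in HEK293T. Of the further cytosolic heat shock genes, 0 of 19 tested passed in either knockout, and the 3 with the smallest p were HSPA2, FKBP4 and DNAJB5 (log2 0.56, -0.18 and 0.26) in HRD1 KO and HSPB8, DNAJB4 and HSPA2 (-1.01, -0.30 and 0.29) in SEL1L KO. Of the cytosolic co-chaperones and subunits of the chaperonin TRiC, 0 of 19 passed, and the 3 with the smallest p were BAG1, STUB1 and CCT6A (-0.42, -0.21 and -0.19) and CCT4, BAG1 and CCT8 (0.18, -0.36 and -0.18). Of the further genes of mitochondrial import, folding and proteolysis, 0 of 19 passed, with SPG7, PITRM1 and TIMM17A (-0.25, 0.30 and 0.25) in HRD1 KO and SPG7, PITRM1 and TRAP1 (-0.33, 0.26 and 0.16) in SEL1L KO having the smallest p. In contrast, of the 15 ER chaperones and cofactors 6 rose in HRD1 KO (PDIA4 by 2.59, HSP90B1 by 1.94, SDF2L1 by 1.86, MANF by 1.54, CALR by 1.49 and PDIA6 by 1.29 on the log2 scale) and 2 in SEL1L KO (PDIA4 by 2.02 and MANF by 1.67). The list medians were 1.49 and 1.17, and 13 of 15 genes had every knockout library above every WT library in each knockout. Of the 8 genes of the integrated stress response none passed, with the smallest p for DDIT3 (0.82), PSAT1 (0.18) and ATF4 (0.13) in HRD1 KO and for PSAT1 (0.40), ATF4 (0.32) and DDIT3 (1.14) in SEL1L KO. None of the 8 immediate early genes passed either, with the smallest p for JUN (-0.22), FOSB (0.74) and ZFP36 (-0.29) in HRD1 KO and for FOS (-1.64), JUNB (-0.73) and JUN (0.25) in SEL1L KO. The count of 0 for these lists rests on limma. At an unadjusted p under 0.05 it was also 0 for each of them in HEK293T. Only 2% of all genes in HRD1 KO and 1.49% in SEL1L KO reached that level.

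In BAT the picture was different for the cytosolic members. Each of the 6 was higher in every library labelled Hrd1 KO than in every WT library, and 5 of 6 in every library labelled Sel1L KO, whereas 3 of 4 mitochondrial members overlapped WT in Hrd1 KO and all 4 in Sel1L KO. Such a lack of overlap was common in this table, being found for 51.1% of all genes tested in Hrd1 KO (higher) and 17.7% in Sel1L KO. At the threshold used for BAT, an adjusted p under 0.01, no member passed, against 0.369% of genes in Hrd1 KO and 0.104% in Sel1L KO. At an adjusted p under 0.05, Hsph1 and Hsp90aa1 passed in Hrd1 KO (4.67% of genes) and none in Sel1L KO (0.882%). Both calls were lost after the scaling described next (limma adjusted p = 0.0925 and 0.381) and with the replicate number as a block (0.0769 and 0.124). At an unadjusted p under 0.05, 5 of 6 cytosolic members were higher in Hrd1 KO (25.4% of genes) and 4 of 6 in Sel1L KO (12.7%), and 0 of 4 mitochondrial members in either.

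Because the median gene itself was 0.42 higher (log2) in Hrd1 KO and 0.09 higher in Sel1L KO, the BAT values were also computed after scaling each library by median-ratio size factors. Of all genes, 0.0401% then passed at an adjusted p under 0.01 in Hrd1 KO and 0.00802% in Sel1L KO, with no member among them. After scaling, 4 of 6 cytosolic members still lay above WT without overlap in Hrd1 KO (Hsph1, Hspb1, Bag3 and Hsp90aa1; 22.8% of genes) and 5 of 6 in Sel1L KO (13.2%). At an unadjusted p under 0.05 there were 2 of 6 in Hrd1 KO (8.01% of genes) and 4 of 6 in Sel1L KO (8.81%). Hspd1 and Hspa9 lay below WT without overlap in the scaled Hrd1 KO values (22.2% of genes).

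Hsph1 (ENSMUSG00000029657, chromosome 5, 149614287 to 149636376 of GRCm38), the Hsp110, had the largest difference of the cytosolic members in Hrd1 KO. It read 24.95, 24.8 and 28.2 FPKM in WT, 59.3 and 121 in Hrd1 KO and 52.9, 49.5 and 43.4 in Sel1L KO. All 5 knockout libraries lay above all 3 WT libraries. Hsph1 had a log2 fold change of 1.71 ± 0.28 (standard error), or 3.26-fold, in Hrd1 KO (limma adjusted p = 0.0188) and 0.90 ± 0.25 in Sel1L KO (adjusted p = 0.121). With scaling these values were 1.29 and 0.81. Between the knockouts Hsph1 differed by 0.81 ± 0.28 on the log2 scale, with an unadjusted p of 0.0187 and an adjusted p of 0.232 from limma; Hsph1 was the only member with an unadjusted p under 0.05 between the BAT knockouts, and 0.0401% of genes passed the adjusted threshold there.

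Hsp90aa1 (ENSMUSG00000021270, chromosome 12, 110690605 to 110702728) had 97.2, 101 and 90.5 FPKM in WT, 150 and 187 in Hrd1 KO and 161, 134 and 144 in Sel1L KO. Every knockout library lay above the highest WT library, and the WT libraries lay close together. Hsp90aa1 had a log2 fold change of 0.80 ± 0.15 in Hrd1 KO (limma adjusted p = 0.0326) and 0.60 ± 0.14 in Sel1L KO (adjusted p = 0.0872), and 0.38 and 0.51 after scaling. Hspa8 (ENSMUSG00000015656, chromosome 9, 40800984 to 40810087), the constitutive Hsp70 and the most abundant member in BAT, had 748, 686 and 685 FPKM in WT, 916 and 1545 in Hrd1 KO and 1015, 1120 and 1196 in Sel1L KO. All knockout libraries were above WT, the 2 Hrd1 KO libraries far apart and the 3 Sel1L KO libraries close together. The log2 fold change was 0.75 ± 0.21 and 0.65 ± 0.19, and 0.33 and 0.56 after scaling; in Hrd1 KO it was 0.38 without replicate 2 and 1.13 without replicate 1.

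Hspb1 (ENSMUSG00000004951, chromosome 5, 135887919 to 135889563), the small heat shock protein, had 101, 143 and 128 FPKM in WT, 244 and 546 in Hrd1 KO and 344, 207 and 194 in Sel1L KO. Every knockout library was above WT, with the highest values in Hrd1 KO replicate 2 and Sel1L KO replicate 1. Hspb1 had a log2 fold change of 1.57 ± 0.37 (limma adjusted p = 0.0518) and 0.97 ± 0.33 (adjusted p = 0.187), and 1.15 and 0.88 after scaling. Bag3 (ENSMUSG00000030847, chromosome 7, 128523616 to 128546981) had 14.3, 13.8 and 16.1 FPKM in WT, 27.4 and 45.2 in Hrd1 KO and 118, 27.1 and 17.1 in Sel1L KO. The library labelled Sel1L KO replicate 1, which also had high immediate early genes and muscle markers, stood far above the rest, and replicate 3 was just above WT. The log2 fold change of 1.37 ± 0.62 in Sel1L KO was 0.55 without that library. In Hrd1 KO the log2 fold change of Bag3 was 1.26 ± 0.69.

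Dnajb1 (ENSMUSG00000005483, chromosome 8, 83608193 to 83612653), the J-domain partner of Hsp70, had the smallest difference of the cytosolic members in Sel1L KO. It read 12.6, 14.4 and 12.1 FPKM in WT, 16.8 and 32.9 in Hrd1 KO and 20.3, 16.7 and 13.7 in Sel1L KO. The Sel1L KO libraries overlapped WT, and of the Hrd1 KO libraries replicate 2 stood well above replicate 1. The log2 fold change was 0.85 ± 0.30 and 0.36 ± 0.27, and 0.43 and 0.27 after scaling; without Hrd1 KO replicate 2 it was 0.37 in Hrd1 KO.

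The library labelled Hrd1 KO replicate 2 had the highest FPKM of the 8 BAT libraries for Hspa8, Hsph1, Hsp90aa1, Dnajb1 and Hspb1. The same held for the mitochondrial Hspe1 and Lonp1, so this was not particular to the cytosolic members. The skeletal muscle markers of Hrd1 KO replicate 2 summed to 11.04 FPKM. The heat-inducible Hsp70 genes Hspa1a and Hspa1b, chosen after their values were seen, read 39.2 and 67.6 FPKM in that library and at most 9.46 and 14.99 in the other 7; they are near-identical copies, so the split between them is uncertain. The library with raised muscle markers, Hrd1 KO replicate 1, was above WT for all 6 cytosolic members too. With Sel1L KO replicate 1 left out, which does not alter the fold changes of Hrd1 KO, Hsph1 and Hsp90aa1 passed at an adjusted p under 0.01 in Hrd1 KO (limma adjusted p = 0.0062 and 0.00671), where 6.3% of genes passed. With both Sel1L KO replicate 1 and Hrd1 KO replicate 1 left out, Hsph1, Hspb1 and Hspa8 passed, at 2.22, 2.15 and 1.13 on the log2 scale, as did 1.45% of genes; a single Hrd1 KO library then stands for its group and is assumed to vary like the others.

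**Figure D2:**
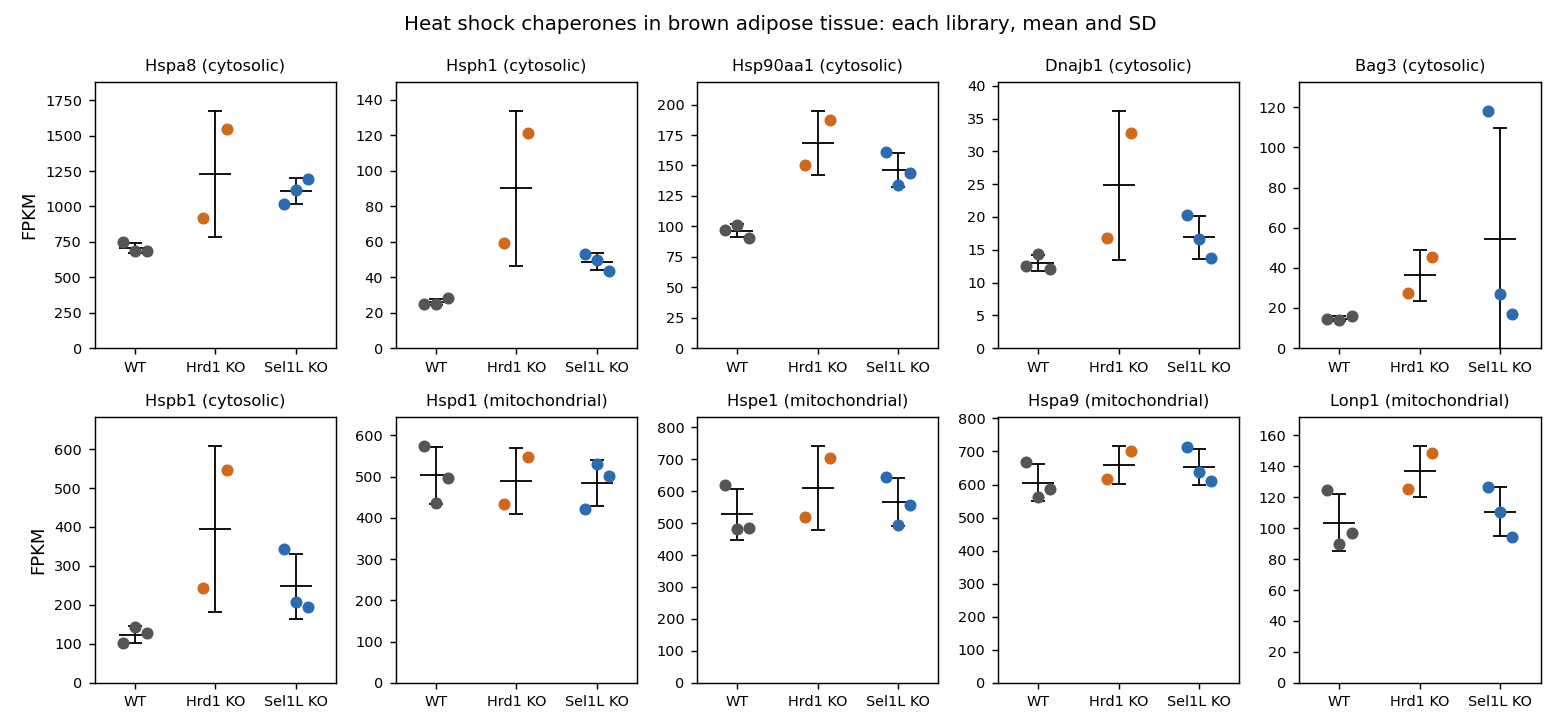
FPKM of the 10 members in each BAT library (points; WT n = 3, Hrd1 KO n = 2, Sel1L KO n = 3), with the mean (horizontal line) and SD (vertical bar, cut at 0 for Bag3) of each group and every axis starting at 0. Hspa8, Hsph1, Hsp90aa1, Bag3 and Hspb1 lie above WT in all 5 knockout libraries, whereas Hspd1, Hspe1 and Hspa9 overlap WT in both knockouts. Values are as deposited, where 51.1% of all genes tested in Hrd1 KO and 17.7% in Sel1L KO lie above WT without overlap. After median-ratio scaling (not drawn), Hspa8 overlaps WT in Hrd1 KO, and Hspd1 and Hspa9 lie below WT there.

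The mitochondrial members of BAT, abundant in this tissue, had values near those of WT as deposited and lower ones in Hrd1 KO after scaling. Hspd1 (ENSMUSG00000025980, chromosome 1, 55077835 to 55088243), the Hsp60 chaperonin, had 575, 435 and 498 FPKM in WT, 433 and 547 in Hrd1 KO and 421, 530 and 502 in Sel1L KO. Hspe1 (ENSMUSG00000073676, chromosome 1, 55088132 to 55091307), which overlaps Hspd1 head to head, had 620, 480 and 484 in WT, 518 and 704 in Hrd1 KO and 644, 494 and 556 in Sel1L KO. For both genes the knockout libraries lay on either side of the WT mean in at least 1 knockout. Hspa9 (ENSMUSG00000024359), mortalin, had 668, 562 and 587 FPKM in WT, 618 and 701 in Hrd1 KO and 713, 637 and 609 in Sel1L KO. Lonp1 (ENSMUSG00000041168, chromosome 17, 56614297 to 56626887), the matrix protease, had 124, 89.5 and 97.0 in WT, 125 and 149 in Hrd1 KO and 126, 111 and 94.5 in Sel1L KO. As deposited, Lonp1 in Hrd1 KO was the only mitochondrial case without overlap, by less than 1 FPKM. After scaling Lonp1 overlapped WT, while Hspd1 and Hspa9 lay below WT in Hrd1 KO without overlap.

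In Hrd1 KO the log2 fold changes of Hspd1, Hspe1, Hspa9 and Lonp1 were -0.04, 0.20, 0.12 and 0.41 as deposited and -0.46, -0.22, -0.30 and -0.01 after scaling, so the direction of 3 of the 4 depended on the scaling. Scaled Hspd1 had a 95% interval of -0.90 to -0.016 and an unadjusted p of 0.044 (limma adjusted p = 0.261), which made it 1 of 4 lower at that level, where 10.1% of all genes were. In Sel1L KO they were -0.05, 0.10, 0.11 and 0.10, and -0.14, 0.01, 0.02 and 0.01 after scaling. The 95% intervals bound what could have been missed: as deposited, the upper bound in Hrd1 KO was 0.38 for Hspd1, 0.66 for Hspe1, 0.45 for Hspa9 and 0.86 for Lonp1 on the log2 scale, and in Sel1L KO it was 0.32 for Hspd1, 0.50 for Hspe1, 0.40 for Hspa9 and 0.50 for Lonp1. The median of the 6 cytosolic members was 1.05 in Hrd1 KO and 0.78 in Sel1L KO (0.63 and 0.69 after scaling) and that of the 4 mitochondrial members 0.16 and 0.10 (-0.26 and 0.01), beside 0.42 and 0.09 over all genes as deposited. Ranked among the 12473 genes tested, the 6 cytosolic members of Hrd1 KO lay at percentiles 72.9 (Hspa8) to 95.4 (Hsph1) of the log2 fold change and the 4 mitochondrial members at 17.9 (Hspd1) to 49.4 (Lonp1). In Sel1L KO the percentiles were 72.1 (Dnajb1) to 95.5 (Bag3) and 36.8 (Hspd1) to 51.7 (Hspa9).

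**Figure D3:**
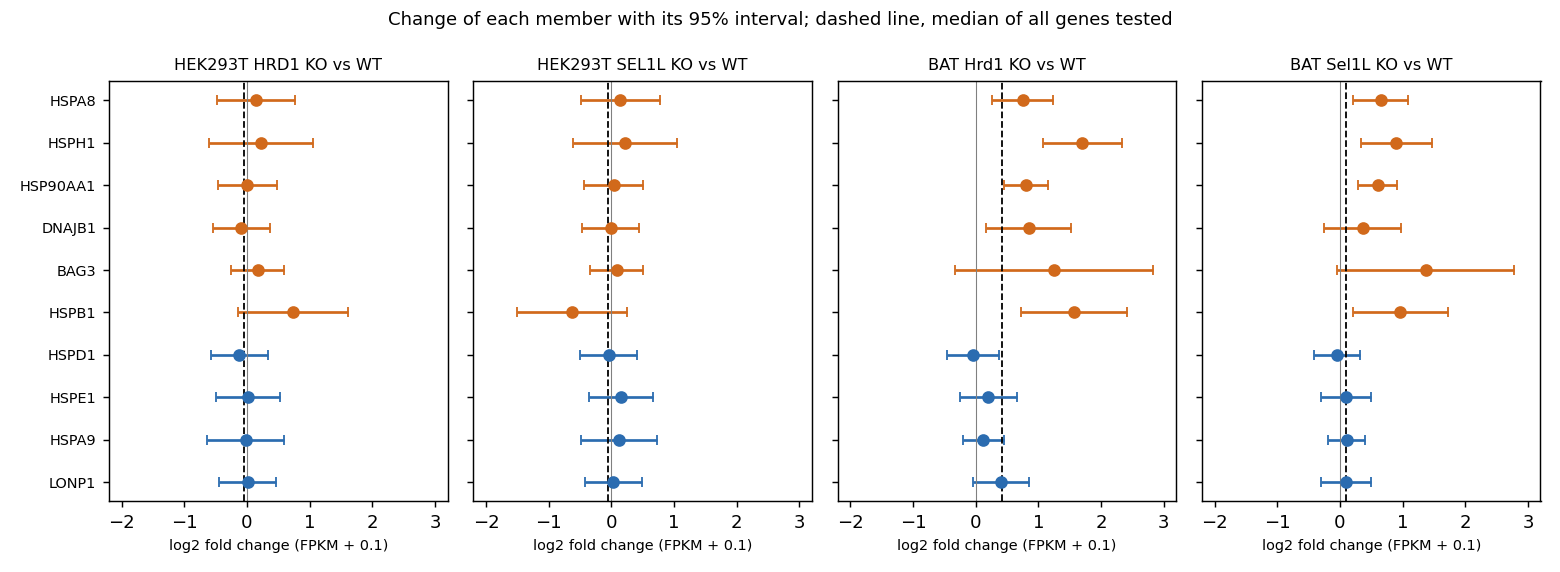
Log2 fold change (FPKM + 0.1) of each member against WT in the 4 comparisons, with its 95% interval from limma, cytosolic members in orange and mitochondrial members in blue; the dashed line is the median of all genes tested. Values are as deposited. In HEK293T every interval includes 0. In BAT those of HSPA8, HSPH1, HSP90AA1 and HSPB1 lie above 0 in both knockouts. Those of the 4 mitochondrial members include 0. Of all genes tested in BAT, 25.4% in Hrd1 KO and 12.7% in Sel1L KO were higher at an unadjusted limma p under 0.05. After median-ratio scaling (not drawn), the Hrd1 KO intervals of HSPA8 and HSP90AA1 include 0 and that of HSPD1 lies below 0.

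A ratio taken within a library is free of the library's scaling. The geometric mean of the 6 cytosolic members relative to that of the 4 mitochondrial members (log2, each value plus 0.1) was -2.87, -2.40 and -2.52 in the WT libraries of BAT, -1.88 and -1.36 in Hrd1 KO and -1.51, -1.97 and -2.09 in Sel1L KO. All 5 knockout libraries were above all WT libraries. In HEK293T the same ratio ranged from -2.08 to -1.83 among WT libraries, from -1.84 to -1.57 among HRD1 KO and from -2.26 to -1.75 among SEL1L KO libraries, and the groups overlapped. The ratio of the 15 ER chaperones to the mitochondrial members moved further in both tables: in HEK293T it was -2.14 to -1.82 in WT, but -0.53 to -0.23 with HRD1 and -0.82 to -0.59 with SEL1L targeted, and in BAT it was -3.68 to -3.45 in WT, but -1.19 to -1.17 with Hrd1 and -1.75 to 0.50 with Sel1l targeted. Relative to the cytosolic members, the ER chaperones also stood higher in every knockout library, at 0.18 to 2.004 in BAT knockouts against -1.05 to -0.81 in WT, and at 1.07 to 1.67 in HEK293T knockouts against -0.31 to 0.27 in WT. Since the members were chosen with earlier results known, these ratios carry no test.

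**Figure D4:**
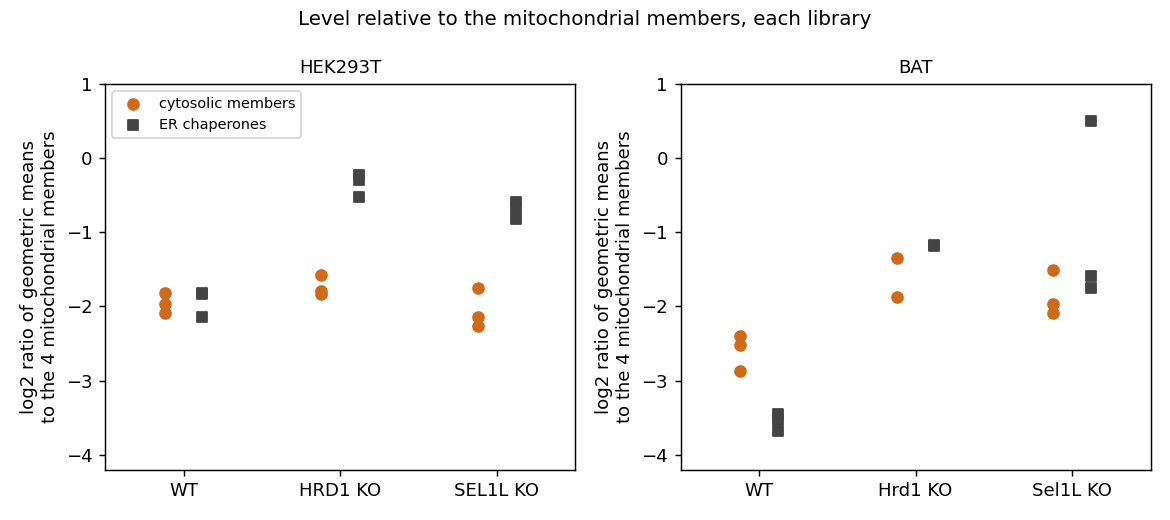
Log2 ratio of geometric means of the 6 cytosolic members (circles) and of 15 ER chaperones (squares) to the 4 mitochondrial members, 1 point for each library. ER chaperones lie above WT in all 11 knockout libraries; cytosolic members lie above WT in all 5 BAT knockout libraries and overlap WT in HEK293T.

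Among the other genes of the pathways in BAT, none of 21 further cytosolic heat shock genes passed at an adjusted p under 0.01. At an unadjusted p under 0.05, 13 of 21 were higher in Hrd1 KO (25.4% of all genes), and 7 higher (12.7%) and 1 lower (5.08%) in Sel1L KO, and their medians were 0.86 and 0.38. After scaling 5 were higher in Hrd1 KO (8.01% of all genes) and 4 in Sel1L KO (8.81%), with medians of 0.43 and 0.29. In the scaled Sel1L KO values 1 was lower (7.8% of all genes). The genes with the smallest p in Hrd1 KO were Cryab, the small heat shock protein alphaB-crystallin (2.28 on the log2 scale, limma adjusted p = 0.0110), Hsf1, the heat shock transcription factor (0.89), and Stip1, the adaptor between Hsp70 and Hsp90 (1.17). In Sel1L KO they were Cryab (1.76), Hspb6 (-0.89) and Chordc1 (0.70). Cryab had 6.66, 6.18 and 4.20 FPKM in WT, 29.4 and 25.8 in Hrd1 KO and 13.6, 23.3 and 22.3 in Sel1L KO, without overlap, and is also abundant in muscle.

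Of the 19 cytosolic co-chaperones and TRiC subunits, none passed, and at an unadjusted p under 0.05 there were 4 higher in Hrd1 KO, a smaller share than the 25.4% of all genes, and 9 in Sel1L KO, against 12.7%. After scaling 1 was higher in Hrd1 KO (8.01% of all genes) and 0 in Sel1L KO (8.81%). Those with the smallest p were Stub1, a ubiquitin ligase that acts on Hsp70 clients (0.84), Cct7 (0.59) and Ptges3 (0.49) in Hrd1 KO and Cct7 (0.52), Cct5 (0.46) and Ptges3 (0.39) in Sel1L KO. The medians were 0.32 and 0.35, and -0.10 and 0.26 after scaling. Of the 19 further mitochondrial proteostasis genes 1 rose in each knockout. It was Atf5, a transcription factor named above with ATF4 and CHOP, by 2.40 ± 0.22 in Hrd1 KO (limma adjusted p = 0.00452) and by 2.08 ± 0.20 in Sel1L KO (adjusted p = 0.00822). Which stress, in which compartment, went with the higher Atf5 was not tested. The values of Atf5 were 39.6, 30.4 and 37.2 FPKM in WT, 176 and 200 in Hrd1 KO and 182, 165 and 113 in Sel1L KO. The remaining 18 genes of that list did not pass, and the list medians were -0.12 and -0.17. At an unadjusted p under 0.05, 2 of 19 were lower in Hrd1 KO (2.02% of all genes) and 4 in Sel1L KO (5.08%). After scaling 10 of 19 were lower in Hrd1 KO (10.1% of all genes), with a median of -0.54, and 4 in Sel1L KO (7.8%), with a median of -0.26. With scaling, Atf5 no longer passed at an adjusted p under 0.01 in either knockout, and without any single WT library 1 gene in all passed in Hrd1 KO.

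The ER chaperones of BAT included 2 genes that rose in both knockouts, Pdia6 (2.40 and 2.37 on the log2 scale), a protein disulfide isomerase, and Sdf2l1 (5.76 and 5.72), a cofactor of the ER Hsp70 BiP; neither passed after scaling. At an unadjusted p under 0.05, 14 of 15 were higher in each knockout (25.4% and 12.7% of all genes), with medians of 2.40 and 2.37. After scaling 10 were higher in Hrd1 KO (8.01% of all genes) and 14 in Sel1L KO (8.81%), with medians of 1.98 and 2.28. Of the 8 integrated stress response genes none passed. The smallest p was for Psat1 (3.23), Ddit3 (2.57) and Trib3 (3.41) in Hrd1 KO and Psat1 (2.99), Ddit3 (2.04) and Asns (0.84) in Sel1L KO. At an unadjusted p under 0.05, 4 of the 8 were higher in Hrd1 KO (25.4% of all genes). In Sel1L KO 3 were higher (12.7%) and 1 was lower (5.08%). Their medians were 1.90 and 1.36. After scaling 3 were higher and 1 was lower in each knockout, with medians of 1.496 and 1.28. Of all genes, 8.01% were then higher and 10.1% lower in Hrd1 KO, and 8.81% and 7.8% in Sel1L KO. Of the 7 immediate early genes tested none passed, with the smallest p for Egr1 (2.19), Fos (2.11) and Ier2 (0.73) in Hrd1 KO and Fos (3.08), Egr1 (2.54) and Junb (1.49) in Sel1L KO; at an unadjusted p under 0.05 their count was 0 and 1.

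**Figure D5:**
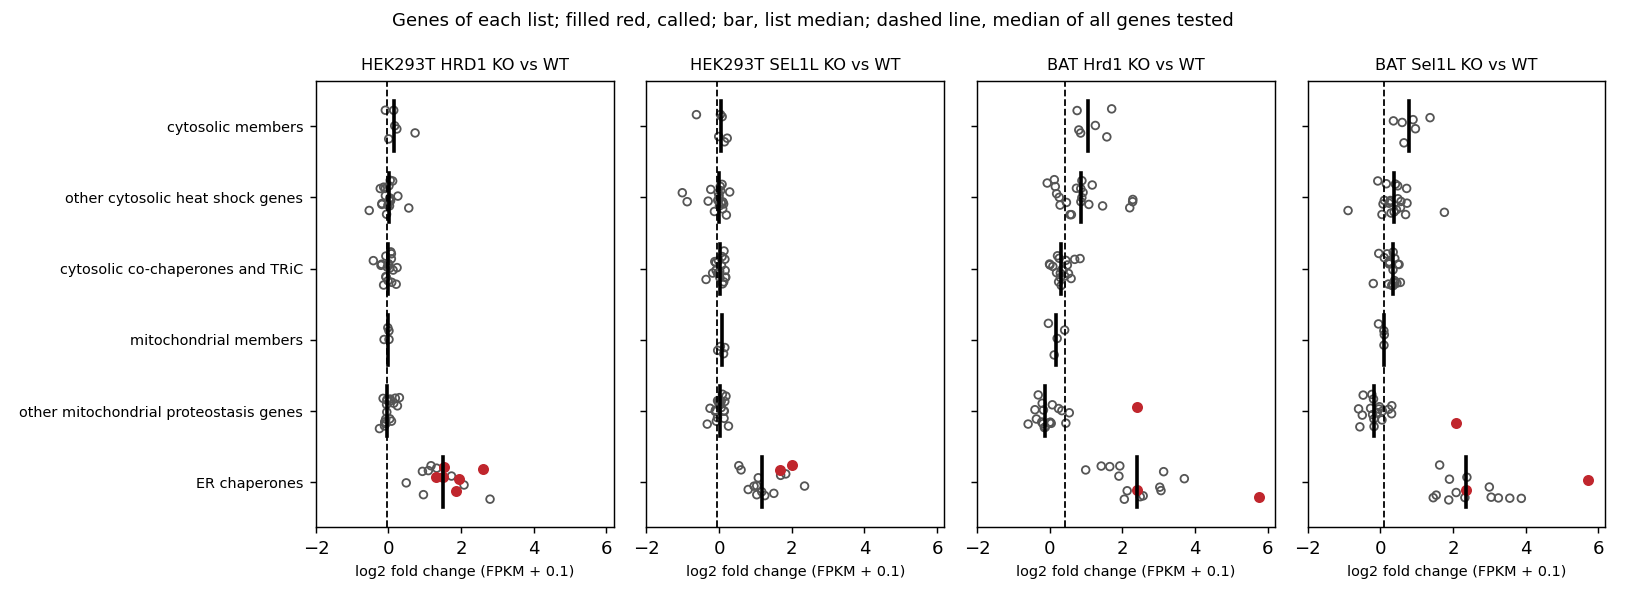
Log2 fold change (FPKM + 0.1) of every gene of 6 lists in the 4 comparisons against WT (open circles, not called; filled red, called), with the list median (bar) and the median of all genes tested (dashed line). The ER chaperones lie to the right in all 4 panels, and the medians of both cytosolic heat shock lists lie right of the dashed line by more than 0.2 in the BAT panels. In BAT the medians of the co-chaperones (Hrd1 KO) and of the other mitochondrial genes lie left of it, with Atf5 apart.

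Similarity of pattern over libraries was described by Pearson's r of log2(FPKM + 0.1), without a test; the libraries share their genotype groups and flow cell. Over the 9 HEK293T libraries the genes most like HSPD1 were MTIF2 (0.978), URB2 (0.973) and AGPAT5 (0.967), and those most like DNAJB1 were RPS26P47 (0.911), PDHB (0.884) and GABBR2 (0.883). Over the 8 BAT libraries they were Thg1l (0.962), Shf (0.943) and Asf1a (0.942) for Hspd1 and Ube2e2 (0.982), Mrpl54 (0.970) and Pold2 (0.964) for Dnajb1.

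Several members have pseudogenes or related rows with which RSEM may share fragments. The summed FPKM of rows named after a member was at most 1.72% of that member's own FPKM in any library, reached by Hspb1 in BAT and its pseudogene Hsp25-ps1. In HEK293T the largest share was 1.10%, for HSPB1. HSPE1 had 27 such rows in the human table, the HSPE1-MOB4 readthrough among them, of which 5 were above 0.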

How the data were processed

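Polyadenylated RNA was sequenced from 9 HEK293T and 8 BAT libraries. The authors aligned the paired-end reads with STAR (2.7.8a) to GRCh38 or GRCm38, after checks with FastQC (0.11.8), and deposited FPKM values from RSEM (1.3.3), which are not counts. Depth as a number of reads is not known from them; relative depth was taken from the spacing of low values. Libraries were grouped by their labels. Genes with at least 1 FPKM in at least 3 HEK293T or 2 BAT libraries were kept (15796 and 12473 genes), and log2(FPKM + 0.1) was fitted with limma (3.58.1, R 4.3.3; lmFit, eBayes with a variance trend), with all 3 groups of a table in 1 model and Benjamini-Hochberg adjustment over all genes kept. The threshold was an adjusted p under 0.05 in HEK293T and under 0.01 in BAT. Fold changes on this scale understate those of low genes. The tests are two-sided. The p-values measure only the spread between these samples, since nothing used here states that the HEK293T libraries came from separate cultures.

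All 10 members are named, with the targeted genes and, from each other list, every gene called or, where none was, the 3 with the smallest p. Likeness was taken for HSPD1 and DNAJB1. The members and lists were chosen with earlier results of these data known. Deviations from group means correlated at 0.216 to 0.485 between same-numbered HEK293T libraries and at most 0.027 between others, so the numbers pair them. In BAT they did not (-0.0602 to 0.0774). On simulated data, the HEK293T HRD1 KO model called 67% of genes changed by 2 on the log2 scale and 11.5% of those changed by 1, and the BAT Hrd1 KO model 28.1% and 0%. Alternatives covered scaling, pseudocount, filter, samples, variance trend, replicate block, threshold and leaving out libraries.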

Additional observations from a re-analysis of the deposited data

How the results depend on the processing

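No HEK293T member passed under any alternative run for either knockout against WT, and in BAT the 6 cytosolic members kept a positive log2 fold change under every alternative run for either knockout. The number of genes passing was far less stable. In BAT, 46 genes passed in Hrd1 KO, but 775 without Sel1L KO replicate 1 and 1 without any single WT library, and the cause was not tested. Unknown read depth and 2 Hrd1 KO libraries limit what BAT can show.

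With median-ratio scaling the log2 fold change turned to 0.013 for HSPA9 in HRD1 KO, and to 0.043 for DNAJB1 and 0.015 for HSPD1 in SEL1L KO, with or without the replicate block. In BAT Hrd1 KO it turned to -0.22 for Hspe1, -0.30 for Hspa9 and -0.010 for Lonp1, and 5 genes passed in Hrd1 KO and 1 in Sel1L KO. Scaling without Sel1L KO replicate 1, an alternative chosen after seeing the data, gave 182 and 27 genes, with -0.22, -0.30 and -0.014 for these members in Hrd1 KO and -0.16, -0.12 and -0.17 in Sel1L KO. Leaving out both Sel1L KO replicate 1 and Hrd1 KO replicate 1, also chosen after seeing the data, gave 3 members and 173 genes in Hrd1 KO, 58 in Sel1L KO and 14 between the knockouts, with 0.13 (Hrd1 KO) and 0.05 (Sel1L KO) for Hspd1 and -0.0043 for Lonp1 in Sel1L KO.

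With the replicate block, 25 genes passed in HRD1 KO, 12 in SEL1L KO and 2 between them in HEK293T, or 25, 13 and 2 with scaling added. In BAT, where the numbers do not pair the libraries, the block left 5 genes in Hrd1 KO and 1 in Sel1L KO. The block changed the call of no member at the thresholds used.

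Without the filter, 9 genes passed in SEL1L KO of HEK293T, 1 in Sel1L KO of BAT and 14 between the BAT knockouts. With only the 2 groups compared, 2 passed in HRD1 KO, 378 in Hrd1 KO, 1 in Sel1L KO and 0 between the BAT knockouts. Without the variance trend, 1 passed between the HEK293T knockouts, 2 in Sel1L KO of BAT and 14 between the BAT knockouts. A pseudocount of 1 gave 8 between the BAT knockouts. An unadjusted p under 0.05 gave 316, 236 and 369 genes in HEK293T, with 1 member (HSPB1) between the knockouts. An adjusted p under 0.05 gave 583 and 110 genes in BAT, with 2 members in Hrd1 KO.

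Leaving out 1 library at a time, genes passing ranged from 2 to 18 in HRD1 KO, 0 to 9 in SEL1L KO and 0 to 13 between them, and in BAT from 1 to 775, 1 to 61 and 1 to 8, with 0 to 2 members in Hrd1 KO. The log2 fold change in HRD1 KO ranged from -0.080 to 0.27 for HSPA8, -0.054 to 0.44 for HSPH1, -0.22 to 0.16 for HSP90AA1, -0.21 to 0.051 for DNAJB1, -0.30 to 0.0092 for HSPD1, -0.22 to 0.20 for HSPE1, -0.28 to 0.26 for HSPA9 and -0.13 to 0.18 for LONP1. In SEL1L KO the ranges were -0.14 to 0.36, -0.16 to 0.42, -0.19 to 0.19, -0.13 to 0.13, -0.19 to 0.04, -0.079 to 0.34, -0.073 to 0.25 and -0.086 to 0.13 in the same order. In BAT they were -0.20 to 0.13 for Hspd1 and -0.017 to 0.43 for Hspe1 in Hrd1 KO, and -0.15 to 0.051 for Hspd1 and -0.0043 to 0.24 for Lonp1 in Sel1L KO. Hspa8 ranged from 0.38 to 1.13, Hsph1 from 1.19 to 2.22, Hspb1 from 0.99 to 2.15, Bag3 from 0.90 to 1.62 and Dnajb1 from 0.37 to 1.33 in Hrd1 KO, and for human HSPB1 the ranges were 0.55 to 1.03 (HRD1 KO) and -1.09 to -0.33 (SEL1L KO).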
